A study of Mus musculus with 6 samples.

Results

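The BCL2 family sets the threshold for the mitochondrial pathway of apoptosis, and 10 of its genes were followed here across 6 mouse Sertoli cell libraries. They were taken by gene name from the deposited transcript tables, where they are 10 of 53135 genes and assembled loci. Bcl2l1 (which encodes BCL-xL), Bcl2 and Mcl1 promote survival. Bax and Bak1 form pores in the outer mitochondrial membrane, and Bcl2l11 (BIM), Bid, Bad, Bbc3 (PUMA) and Pmaip1 (NOXA) are BH3-only genes, which promote death. All 10 had values in the tables. Of these, 9 had a mean of at least 0.5 FPKM and were tested among 15095 genes and loci, and Pmaip1 lay below that level.

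Total RNA was sequenced from Sertoli cell lines, grown from the somatic cells that support germ cells in the testis tubule. The GFP-positive group (replicates 2, 4 and 7) is labelled green, for expression of a GFP reporter on the Y chromosome, and the GFP-negative group (replicates 9, 11 and M) is labelled non-green. Strain, age, culture conditions and whether a replicate is a separate culture, clone or animal are not given in the sources used here. The p-values therefore measure only the spread between these 6 libraries, and that spread may be technical. The design sets green lines against non-green ones, and reads of the reporter were not analysed here. Levels are in FPKM (fragments per kilobase, adjusted for library depth), scaled between libraries as described under processing. FPKM divides by transcript length, but a trend with length that differed between the groups remained, as given below. Comparisons of levels between genes are therefore approximate.

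In this pathway the survival proteins hold the pore formers in check by binding them and the BH3-only proteins. BH3-only proteins, raised or activated by stress, occupy that binding groove or act on BAX and BAK directly, after which the mitochondrial membrane opens, cytochrome c is released and caspases are activated. The contact runs through the BH3 segment, which every member carries. In testis, apoptosis mediated by this family removes surplus germ cells, and Bcl2l2 (BCL-W) is known to be needed for the survival of Sertoli and germ cells in adult mice.

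The coding stretches of this segment are shown because they are what the opposing members have in common. Each was read from the GENCODE M21 transcript of the member (build GRCm38) as 15 codons, with the 6 codons of the BH3 core in capitals. The core was found as leucine, any 3 residues, then glycine, serine or alanine, then aspartate, and each coding sequence had a single match. Pmaip1 is named only.
Bcl2l1: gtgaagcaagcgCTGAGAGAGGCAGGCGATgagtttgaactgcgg
Bcl2: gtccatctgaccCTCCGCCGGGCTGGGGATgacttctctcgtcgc
Mcl1: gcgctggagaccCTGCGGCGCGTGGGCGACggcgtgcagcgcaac
Bax: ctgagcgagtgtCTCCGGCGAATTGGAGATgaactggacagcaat
Bak1: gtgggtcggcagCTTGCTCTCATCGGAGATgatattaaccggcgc
Bcl2l11: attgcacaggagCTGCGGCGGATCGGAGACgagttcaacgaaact
Bid: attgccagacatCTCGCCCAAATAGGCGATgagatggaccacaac
Bad: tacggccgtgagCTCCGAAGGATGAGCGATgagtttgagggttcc
Bbc3: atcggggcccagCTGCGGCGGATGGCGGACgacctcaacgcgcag
The fifth core codon encodes glycine in 7 of the 9, serine in Bad and alanine in Bbc3. No stretch crosses an exon junction. The Bcl2l1 stretch lies in exon 2 (chr2:152829691-152829735, minus strand, GRCm38), that of Bcl2 in exon 1 (chr1:106712569-106712613, minus strand) and that of Bad in exon 3 (chr19:6950780-6950824, plus strand). Over the 45 bases, Bcl2 matches Bcl2l1 at 23, Bak1 and Bad at 21, and Bax at 17.

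Among the survival genes, Bcl2l1 and Bcl2 had lower values in the GFP-positive libraries and Mcl1 did not. Among the death-promoting genes Bad was higher. Of the 9 tested members 2 passed an adjusted p of 0.05 (limma with Benjamini-Hochberg adjustment over all genes), Bad upward and Bcl2l1 downward. Across all tested genes 25.9% passed, 14.4% upward and 11.5% downward, so the count of members is near the background and is not a result about the family. The values of both groups were without overlap for 5 of the 9 members, against 45.7% of all tested genes. Of these 5, Bad and Bbc3 lay above (23.5% of all tested genes) and Bcl2l1, Bcl2 and Bcl2l11 below (22.2%). The median log2 change was 0.13 over the 9 members and 0.02 over all tested genes.

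**Figure D1:**
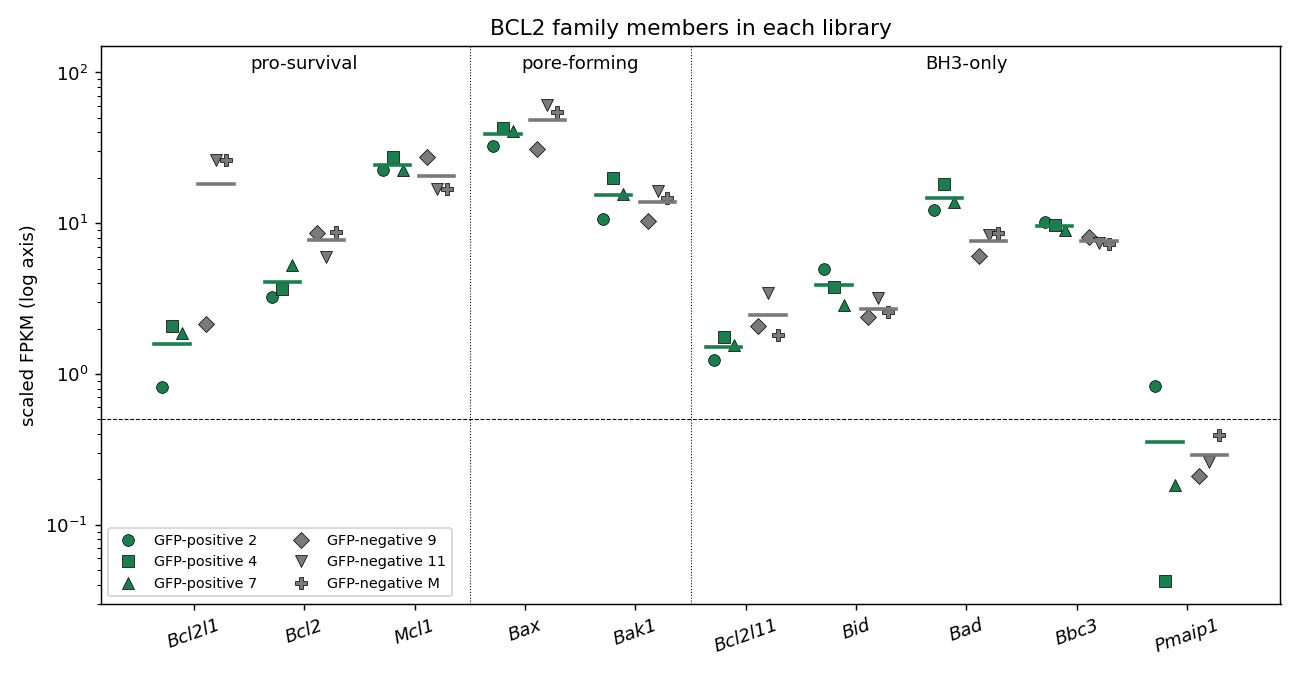
Scaled FPKM (log axis) of the 10 BCL2 family genes in each library, with 3 GFP-positive libraries left (green) and 3 GFP-negative libraries right (grey) for each gene. Horizontal bars are group means and the dashed line is the 0.5 FPKM filter. Bcl2l1 was at 26.2 FPKM in GFP-negative 11 and M, against 2.15 FPKM in GFP-negative 9.

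Bcl2l1 (chromosome 2, 152622588 to 152673648, mm39) encodes BCL-xL, a survival protein of the outer mitochondrial membrane. Its level was 0.818, 2.09 and 1.86 FPKM in GFP-positive 2, 4 and 7, against 2.15, 26.2 and 26.2 FPKM in GFP-negative 9, 11 and M. The groups did not overlap, but GFP-negative 9 lay just above the highest GFP-positive library and far below the other GFP-negative ones. Bcl2l1 averaged 1.59 ± 0.68 FPKM in the GFP-positive libraries and 18.2 ± 13.9 FPKM in GFP-negative libraries (SD, n = 3 each). The log2 change was -2.62 (SE 0.82, adjusted p = 0.0451, limma), a fall in the GFP-positive libraries. In bulk RNA, fewer cells of a type and less RNA per cell cannot be told apart. With GFP-negative 11 and M both left out the log2 difference was -0.47 (adjusted p = 0.587), and the call was also lost on leaving out any library except GFP-negative 9 (adjusted p from 0.0956 to 0.151) and with no filter (0.161).

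GFP-negative 9 lay between the groups across the genome as well. On the first principal component, which held 63.0% of the variance, GFP-positive 2, 4 and 7 were at -65.7, -50.2 and -60.9 and GFP-negative 9, 11 and M at 20.1, 87.6 and 69.2. Among 5584 genes whose GFP-positive mean and mean of GFP-negative 11 and M were at least 1 log2 unit apart, the median position of GFP-negative 9 between those means (0 and 1) was 0.53. For Bcl2l1 it was 0.11, and 13.3% of these genes were at or below that. For transcripts that carry the gene name, the step between GFP-negative 9 and the other GFP-negative libraries was thus deeper for Bcl2l1 than for most such genes, without being rare. With unnamed isoforms of the locus added, GFP-negative 9 measured 6.51 FPKM against 1.25 to 3.11 FPKM in the GFP-positive libraries. This position was not computed with those isoforms added, so the deeper step is limited to named transcripts.

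The genes with the most similar profile were named by the Pearson correlation of log2 levels with Bcl2l1 over the 6 libraries, among 11724 genes with ordinary symbols. They were Zfp384 (0.998), Zer1 (0.997), Polr2f (0.993), Lage3 (0.993) and Bahd1 (0.993). These points share libraries and scaling, and the correlations are descriptions that take no account of the size of a difference. Polr2f, which encodes an RNA polymerase subunit, had a smaller step than Bcl2l1 between the same libraries, at 2.23, 3.04 and 2.96 FPKM in GFP-positive 2, 4 and 7, against 3.03, 18.9 and 15.04 FPKM in GFP-negative 9, 11 and M. All 5 log2 differences were smaller than the -2.62 of Bcl2l1, at -1.97 for Lage3, -1.66 for Polr2f, -0.91 for Zer1, -0.74 for Bahd1 and -0.38 for Zfp384. They are given without a test, since the genes were picked for their likeness to Bcl2l1.

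The isoforms of Bcl2l1 did not differ alike. Bcl2l1-202, the longest annotated transcript, measured 0.584, 0 and 0.260 FPKM in GFP-positive 2, 4 and 7, against 0.926, 14.1 and 15.3 FPKM in GFP-negative 9, 11 and M. It carried most of the difference. Bcl2l1-201, which starts further upstream, overlapped between groups, at 0.00214, 1.44 and 0.951 FPKM in the GFP-positive libraries and 0.386, 1.66 and 2.55 FPKM in GFP-negative libraries. An unnamed 3-exon isoform with the ends of Bcl2l1-202, at 2859 nt, was listed at 0 in all 3 GFP-positive libraries and at 3.10, 4.86 and 2.05 FPKM in GFP-negative 9, 11 and M. For this isoform GFP-negative 9 lay between the other GFP-negative libraries.

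Another unnamed transcript at this locus, 41601 nt long, covers all but 123 bases of its span, most of which lies in the large second intron. Its levels were 0.425, 0.723 and 1.22 FPKM in GFP-positive 2, 4 and 7, against 1.30, 4.64 and 4.20 FPKM in GFP-negative 9, 11 and M. With both unnamed transcripts added, Bcl2l1 measured 1.25, 2.84 and 3.11 FPKM in the GFP-positive libraries and 6.51, 36.0 and 32.5 FPKM in GFP-negative libraries. The log2 change was then -2.88 (SE 0.61, adjusted p = 0.0128, limma), and GFP-negative 9 stood clearly above the GFP-positive libraries. The choice to leave the unnamed isoforms out therefore bears on where that library falls.

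**Figure D2:**
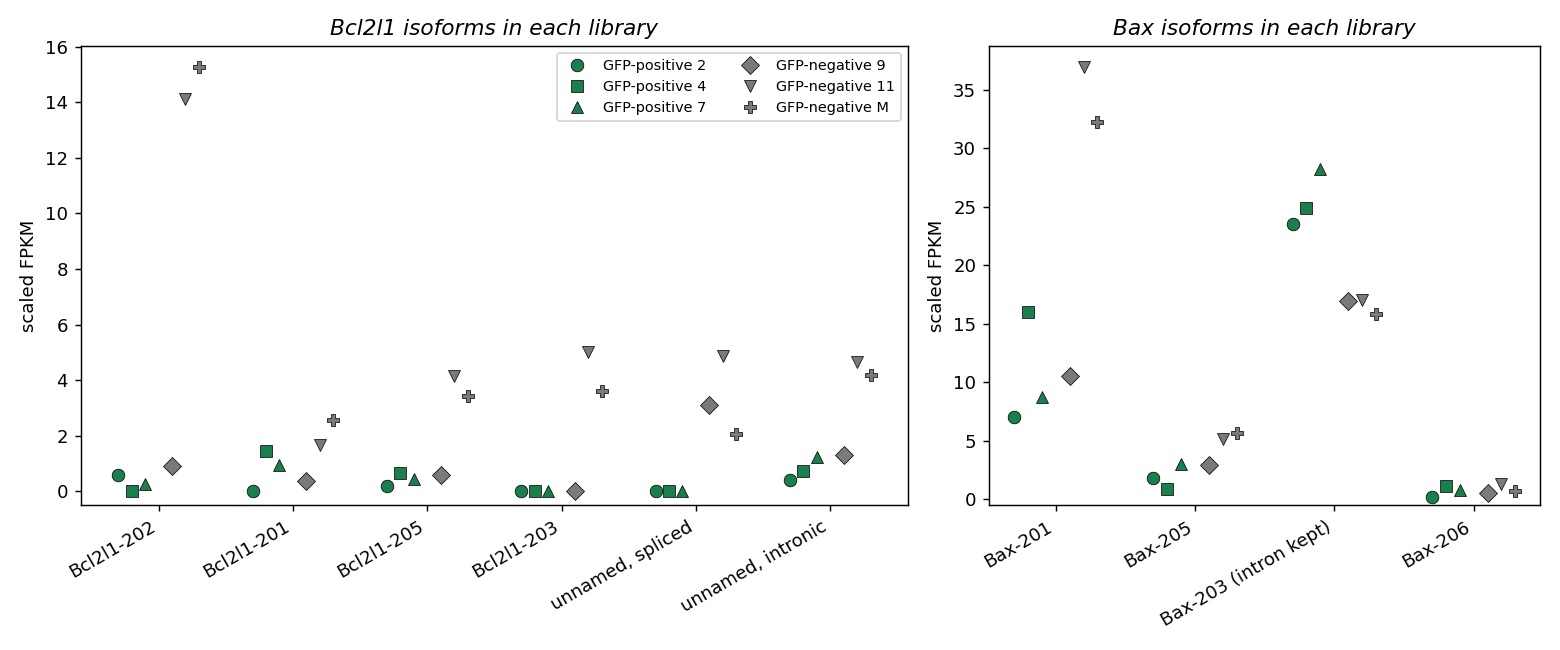
Scaled FPKM of the main isoforms of Bcl2l1 (left) and Bax (right) in each library, GFP-positive (green) left of GFP-negative (grey) at each isoform. Bcl2l1-202 reached 14.1 and 15.3 FPKM in GFP-negative 11 and M alone, and Bax-203, which keeps the first intron, was higher in each GFP-positive library (23.5 to 28.2 FPKM) than in any GFP-negative one (15.9 to 17.1 FPKM).

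Bcl2 (chromosome 1, 106465908 to 106642004), the founding survival gene of the family, measured 3.25, 3.66 and 5.25 FPKM in GFP-positive 2, 4 and 7. In GFP-negative 9, 11 and M it measured 8.58, 5.98 and 8.81 FPKM. Each GFP-positive library was below each GFP-negative one, GFP-negative 9 included. The log2 difference of -0.87 (SE 0.29) narrowly missed the threshold (adjusted p = 0.0526, limma). It passed with unnamed isoforms added across the genome (-0.86, adjusted p = 0.0440), with the filter set at 1 FPKM (adjusted p = 0.0492) and without GFP-negative 11 (adjusted p = 0.0473). On leaving out any other single library it did not pass (adjusted p from 0.0725 to 0.164, limma). Its spliced isoform Bcl2-201 held the separation, at 2.38, 2.22 and 2.63 FPKM in the GFP-positive libraries and 6.59, 4.00 and 5.68 FPKM in GFP-negative libraries. The unspliced Bcl2-202, which carries 1966 bases of the first intron, overlapped between groups (0.864 to 2.62 FPKM in GFP-positive, 1.98 to 3.13 FPKM in GFP-negative libraries). Gm37053 on the same strand and D630008O14Rik on the opposite strand overlap the Bcl2 span, and the sources used here do not say whether the assembly used the strand of the reads.

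Mcl1 (chromosome 3, 95566099 to 95575595) encodes a short-lived survival protein, and it was the most abundant survival gene in all 3 GFP-positive libraries and in GFP-negative 9. Its level was 22.6, 27.6 and 22.6 FPKM in GFP-positive 2, 4 and 7, against 27.6, 16.8 and 17.0 FPKM in GFP-negative 9, 11 and M. The groups overlapped through GFP-negative 9, and the log2 difference of 0.27 (SE 0.28) did not pass (adjusted p = 0.478, limma). With named transcripts alone, Mcl1 was at 27.6, 13.2 and 12.1 times the level of Bcl2l1 in GFP-positive 2, 4 and 7, and at 12.9 times in GFP-negative 9. In GFP-negative 11 and M Bcl2l1 was the higher of the 2 genes, with ratios of Mcl1 to Bcl2l1 of 0.642 and 0.647. An unnamed Mcl1 isoform, which keeps the 273 bases of the first intron, measured 14.996, 17.2 and 18.6 FPKM in the GFP-positive libraries and 11.3, 14.4 and 10.5 FPKM in GFP-negative libraries. These 2 sets of values did not overlap.

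The pore-forming genes did not separate the groups. By named transcripts Bax (chromosome 7, 45111121 to 45116322) was the most abundant member in every library, at 32.6, 43.0 and 40.8 FPKM in GFP-positive 2, 4 and 7, against 31.0, 60.5 and 54.5 FPKM in GFP-negative 9, 11 and M. Its log2 difference was -0.28 (SE 0.31, adjusted p = 0.523, limma). With unnamed isoforms added, Mcl1 lay above Bax in GFP-positive 2, 4 and 7 (37.7, 45.1 and 41.4 against 32.7, 43.3 and 41.0 FPKM). The same held in GFP-negative 9 (38.7 against 30.8 FPKM), but not in GFP-negative 11 and M. Bak1 (chromosome 17, 27238784 to 27247983) measured 10.6, 19.8 and 15.6 FPKM in the GFP-positive libraries and 10.3, 16.3 and 14.6 FPKM in GFP-negative libraries. Its log2 difference was 0.13 (SE 0.31, adjusted p = 0.765, limma). Ggnbp1 and Gm50253 overlap Bak1 on the opposite strand, and Gm45808 overlaps Bax on the same strand.

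The isoforms of Bax did not move alike. The spliced Bax-201 measured 7.00, 16.01 and 8.72 FPKM in GFP-positive 2, 4 and 7, against 10.5, 36.9 and 32.3 FPKM in GFP-negative 9, 11 and M. Bax-203 contains all 470 bases of the first intron. Its level was 23.5, 24.9 and 28.2 FPKM in the GFP-positive libraries and 17.0, 17.1 and 15.9 FPKM in GFP-negative libraries, with no overlap. As a share of all Bax isoforms, Bax-203 made up 72.2%, 58.0% and 69.3% in GFP-positive 2, 4 and 7, against 54.8%, 28.2% and 29.1% in GFP-negative 9, 11 and M. A share within a gene does not depend on the scaling between libraries.

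The same comparison for other members, chosen after their isoforms were seen, gave mixed results. Besides the 41601-nt transcript, Bcl2l1-205 and Bcl2l1-206 run on from the second exon into the second intron, for 1300 and 1065 bases. These 3 isoforms made up 52.8%, 49.0% and 58.3% of the Bcl2l1 locus in GFP-positive 2, 4 and 7. In GFP-negative 9, 11 and M they made up 29.1%, 25.4% and 25.4%, also without overlap, and GFP-negative 9 here lay with its own group. The shares overlapped for Bcl2-202 (26.6% to 49.9% in GFP-positive, 23.2% to 35.5% in GFP-negative libraries) and for the intron-containing Mcl1 isoform (38.4% to 45.1% and 29.0% to 46.0%). Among isoforms annotated as retaining an intron, Bad-207 made up 1.21% to 1.56% of named Bad transcripts in GFP-positive and 2.57% to 6.45% in GFP-negative libraries. Its levels were low and overlapped (0.167 to 0.287 and 0.155 to 0.552 FPKM), while the Bad total was higher in the GFP-positive libraries. Bbc3-203 made up no more than 9.67% of named Bbc3 in GFP-positive and at least 9.68% in GFP-negative libraries. Its levels overlapped as well (0.358 to 0.894 and 0.701 to 1.22 FPKM). That share leaves out an unnamed Bbc3 isoform at 0.888 to 2.62 FPKM. With this isoform counted in the whole, the Bbc3-203 shares overlapped. Bax-206 and Bid-205, annotated alike, overlapped. Abundances of overlapping isoforms are estimates of the assembler, and these shares were not tested.

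Of the BH3-only genes, Bad (chromosome 19, 6919229 to 6929267), whose protein binds BCL2 and BCL-xL unless phosphorylated in response to growth factors, was higher in the GFP-positive libraries. Its level was 12.2, 18.3 and 13.8 FPKM in GFP-positive 2, 4 and 7, against 6.05, 8.38 and 8.56 FPKM in GFP-negative 9, 11 and M. The groups did not overlap, and the mean was 1.93 times as high in the GFP-positive libraries (14.8 ± 3.19 against 7.66 ± 1.40 FPKM, SD, n = 3 each). The log2 change was 0.90 (SE 0.27, adjusted p = 0.0409, limma). This call was lost on leaving out any 1 of the 6 libraries (adjusted p from 0.0548 to 0.113). Within Bad the 3-exon isoform Bad-206 measured 4.55, 0.747 and 3.94 FPKM in the GFP-positive libraries and 0.0759, 0.281 and 0.290 FPKM in GFP-negative libraries, whereas Bad-201, the highest isoform on average, overlapped (4.02 to 12.1 and 3.35 to 6.36 FPKM). Gpr137 overlaps Bad on the opposite strand.

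Bbc3 (chromosome 7, 16042318 to 16052251), a p53 target gene, was nearly level within groups. Its level was 10.2, 9.70 and 9.00 FPKM in GFP-positive 2, 4 and 7, against 8.07, 7.43 and 7.24 FPKM in GFP-negative 9, 11 and M. The groups did not overlap, yet the log2 difference of 0.33 (SE 0.23) did not pass (adjusted p = 0.297, limma). Bcl2l11 (chromosome 2, 127967958 to 128004467) encodes BIM, which binds all survival members and is induced by FOXO3. Its level was 1.23, 1.77 and 1.55 FPKM in the GFP-positive libraries and 2.10, 3.45 and 1.82 FPKM in GFP-negative libraries, lower in each GFP-positive one. Its log2 difference was -0.52 (SE 0.30, adjusted p = 0.218, limma).

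Bid (chromosome 6, 120868891 to 120893814), which links death receptors to mitochondria after cleavage by caspase-8, measured 5.01, 3.78 and 2.85 FPKM in the GFP-positive libraries and 2.37, 3.21 and 2.57 FPKM in GFP-negative libraries. These overlapped, and the log2 difference was 0.42 (SE 0.29, adjusted p = 0.284, limma). Bcl2l13 and Gm17812 overlap Bid on the opposite strand, and Gm44260 on the same strand. Pmaip1 (chromosome 18, 66591604 to 66598636), another p53 target, was untested at 0.830, 0.0422 and 0.184 FPKM in GFP-positive 2, 4 and 7, against 0.212, 0.259 and 0.397 FPKM in GFP-negative 9, 11 and M. Its highest and its lowest value both came from GFP-positive libraries. Trp53, the gene of the factor that activates Bax, Bbc3 and Pmaip1, measured 10.6, 21.4 and 14.0 FPKM in the GFP-positive libraries and 21.5, 46.2 and 33.6 FPKM in GFP-negative libraries (log2 difference -1.11, adjusted p = 0.0527, limma).

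**Figure D3:**
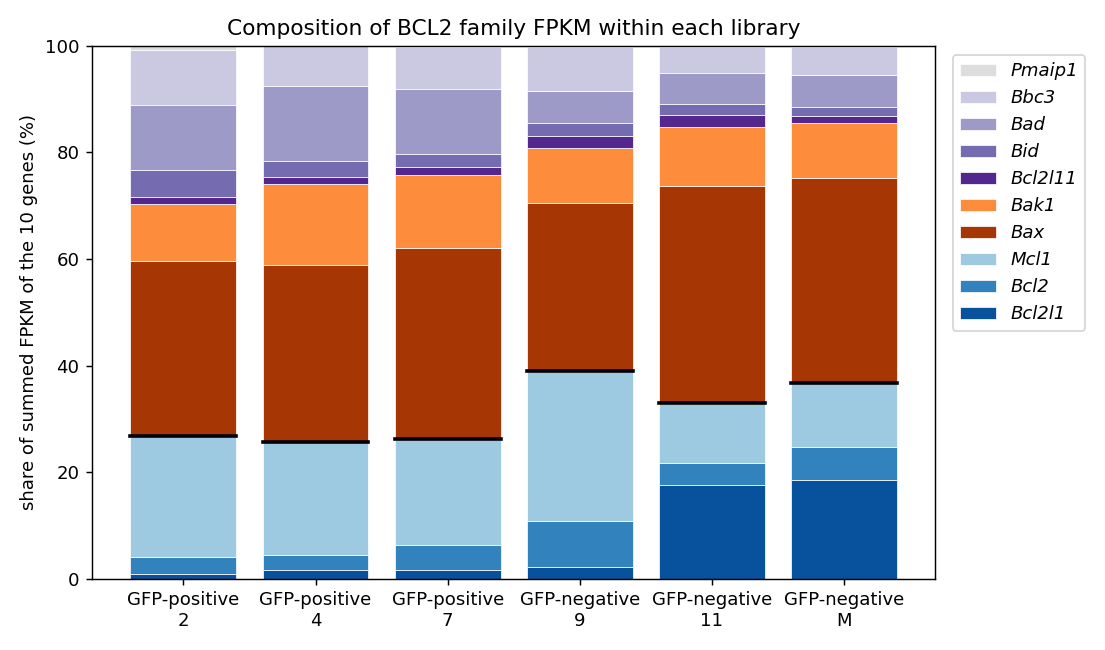
Share of the summed FPKM of the 10 genes (%) held by each gene in each library, GFP-positive libraries left and GFP-negative libraries right, with survival genes in blue, pore formers in orange and BH3-only genes in purple and grey. The black line marks the top of the survival genes, at 25.7% to 26.8% in GFP-positive and 33.0% to 39.0% in GFP-negative libraries, before any correction for transcript length.

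The balance of survival and death-promoting members was compared within each library, where a scale factor per library plays no part. Survival genes held 26.8%, 25.7% and 26.2% of the summed FPKM of the 10 genes in GFP-positive 2, 4 and 7, against 39.0%, 33.0% and 36.7% in GFP-negative 9, 11 and M. The GFP-positive libraries lay within a narrow range below all GFP-negative ones (26.2 ± 0.582% against 36.2 ± 3.02%, SD, n = 3 each). No p is given, since the members were chosen with earlier results known. This difference depended on transcript length. With the trend of level with length removed from each library (loess), survival genes held 31.8%, 33.5% and 32.8% in GFP-positive 2, 4 and 7, against 32.8%, 27.9% and 30.7% in GFP-negative 9, 11 and M. The groups then overlapped, and the mean was higher in the GFP-positive libraries (32.7% against 30.5%). Pore formers held like shares, 43.5% to 49.7% in GFP-positive and 41.9% to 51.7% in GFP-negative libraries. BH3-only genes held 29.7%, 25.9% and 24.2% in GFP-positive 2, 4 and 7, against 19.1%, 15.3% and 14.5% in GFP-negative 9, 11 and M, without overlap. With the length trend removed BH3-only genes held 22.9% to 28.3% in the GFP-positive libraries and 14.9% to 20.4% in GFP-negative libraries, again without overlap.

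The summed survival FPKM was 26.7, 33.3 and 29.7 in GFP-positive libraries, against 38.4, 49.0 and 52.0 in GFP-negative libraries. The summed FPKM of the 7 death-promoting genes overlapped, at 72.7, 96.5 and 83.8 in GFP-positive and 60.1, 99.5 and 89.7 in GFP-negative libraries. With named transcripts alone, GFP-negative 9 came to its survival share by another route than GFP-negative 11 and M. Mcl1 made up 72.0% of its survival FPKM and Bcl2l1 5.59%, close to the GFP-positive libraries (76.0% to 84.8% and 3.07% to 6.28%), whereas in GFP-negative 11 and M Bcl2l1 made up 53.5% and 50.4%. Its Bcl2 share, 22.4%, was the highest of the 6 libraries. With unnamed isoforms added, survival genes held 36.1%, 34.0% and 36.8% in GFP-positive and 46.5%, 41.7% and 42.8% in GFP-negative libraries, still without overlap. Bcl2l1 then measured 6.51 FPKM in GFP-negative 9, above the GFP-positive libraries (1.25 to 3.11 FPKM). It remained below GFP-negative 11 and M (36.0 and 32.5 FPKM). Adding unnamed isoforms thus widened the gap between GFP-negative 9 and the GFP-positive libraries in Bcl2l1. Either way that library lay far below GFP-negative 11 and M.

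The BH3-only share includes Bad, and the summed shares of the other BH3-only genes overlapped between groups. Bad by itself separated the groups as a share of the 10-gene sum. It held 12.2%, 14.1% and 12.2% in GFP-positive 2, 4 and 7, against 6.14%, 5.64% and 6.04% in GFP-negative 9, 11 and M. Without the length trend these shares were 11.0% to 12.4% and 6.11% to 6.88%. In order of mean level of named transcripts the members ran Bax, Mcl1, Bak1, Bad, Bbc3, Bcl2, Bid, Bcl2l1, Bcl2l11 and Pmaip1 in the GFP-positive group. The GFP-negative order was Bax, Mcl1, Bcl2l1, Bak1, Bcl2, Bad, Bbc3, Bid, Bcl2l11 and Pmaip1. With unnamed isoforms added, Mcl1 came before Bax in the GFP-positive group (41.4 ± 3.70 and 39.0 ± 5.58 FPKM), and some lower ranks of the GFP-negative group changed. The spreads that follow are for named transcripts. Within the GFP-positive group the neighbours Bak1 and Bad (15.3 ± 4.62 and 14.8 ± 3.19 FPKM), Bcl2 and Bid (4.05 ± 1.06 and 3.88 ± 1.08 FPKM) and Bcl2l1 and Bcl2l11 (1.59 ± 0.68 and 1.52 ± 0.270 FPKM) lay within their spread. In the GFP-negative group the same held for Mcl1, Bcl2l1 and Bak1 (20.5 ± 6.21, 18.2 ± 13.9 and 13.7 ± 3.08 FPKM), for Bcl2, Bad and Bbc3 (7.79 ± 1.57, 7.66 ± 1.40 and 7.58 ± 0.433 FPKM) and for Bid and Bcl2l11 (2.72 ± 0.437 and 2.46 ± 0.875 FPKM).

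Transcript length moved with the comparison. Genes whose longest transcript was 200 to 1500 nt had a median log2 change of 0.77, and those of at least 5000 nt one of -0.53. Bad falls among genes of 1500 to 3000 nt (median 0.27), Bcl2l1 among those of 3000 to 5000 nt (median -0.14), and Bcl2, Mcl1 and Bcl2l11 among the longest. With the length trend of each library removed, Bad was at 0.50 (adjusted p = 0.209), Bcl2 at -0.36 (adjusted p = 0.395) and Bcl2l11 at -0.0099 (adjusted p = 0.985). Bcl2l1 stood at -2.66 (adjusted p = 0.0578) and Mcl1 at 0.84 (adjusted p = 0.0800, all limma). Bax was at -0.79 (adjusted p = 0.115), against -0.28 before, and Bbc3 at 0.031 (adjusted p = 0.937), against 0.33. No member passed then. The Bcl2l1 difference was as large without the length trend, those of Bad, Bcl2, Bcl2l11 and Bbc3 were smaller, and those of Mcl1 and Bax were larger.

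**Figure D4:**
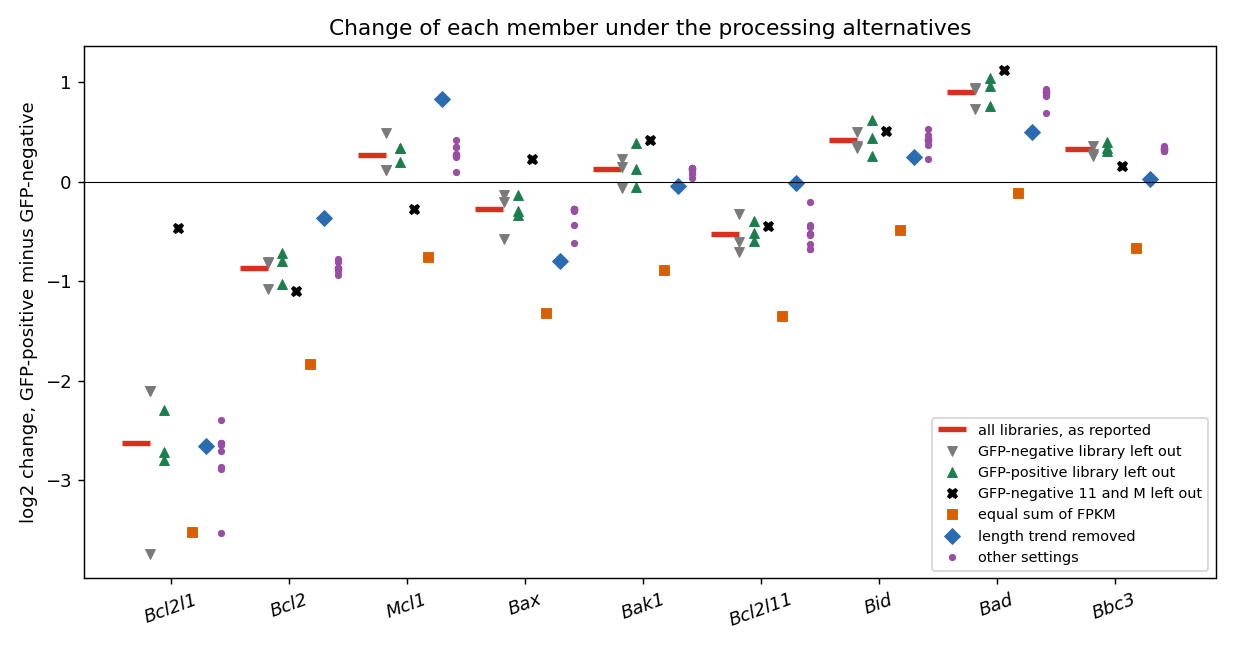
Log2 change (GFP-positive minus GFP-negative) of the 9 tested members with all libraries (red bar) and under each processing alternative. Bcl2l1 moved to -0.47 with GFP-negative 11 and M left out and to -3.74 without GFP-negative 9, and every member lay lower with libraries scaled to an equal sum of FPKM.

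Scaling between libraries also set direction. With an equal sum of FPKM per library the median of all genes stood at -0.87, and 7.76% of called genes were higher, against 55.8% as scaled here. All members were then below 0, and relative to that median Bad stood at 0.76, Mcl1 at 0.11, Bcl2 at -0.96 and Bcl2l1 at -2.65.

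Among 20 other listed BCL2 family and BH3-like genes, 11 were tested, none rose and 1 fell, where 14.4% of all tested genes rose and 11.5% fell. That gene was Bcl2l13, a mitochondrial outer membrane member with roles in mitophagy, at 5.85, 4.98 and 4.20 FPKM in the GFP-positive libraries and 8.28, 10.6 and 10.5 FPKM in GFP-negative libraries (log2 change -0.91, SE 0.25, adjusted p = 0.0326, limma). The list median was 0.52. Bcl2l2 measured 1.73, 3.31 and 3.29 FPKM in the GFP-positive libraries and 1.25, 4.94 and 5.86 FPKM in GFP-negative libraries, with GFP-negative 9 lowest (log2 difference -0.30, adjusted p = 0.665; chosen after its values were seen). Of the near-identical Bcl2a1 genes, which share reads, Bcl2a1a was listed at 0 in all libraries and Bcl2a1b and Bcl2a1d were below the filter.

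Downstream of the pores, 3 of 18 apoptosome and executioner genes rose and none fell (list median 0.35), where 14.4% of all tested genes rose and 11.5% fell. Cycs, which encodes the somatic cytochrome c whose release starts caspase activation, measured 123.9, 85.4 and 105.8 FPKM in GFP-positive 2, 4 and 7, against 37.9, 10.3 and 14.8 FPKM in GFP-negative 9, 11 and M (log2 change 2.49, SE 0.45, adjusted p = 0.0103, limma). Vdac3, an outer membrane channel gene, measured 253.4, 372.6 and 304.25 FPKM in the GFP-positive libraries and 66.4, 55.2 and 28.7 FPKM in GFP-negative libraries (log2 change 2.68, SE 0.36, adjusted p = 0.00667, limma). Cyct, which encodes the cytochrome c of germ cells in testis, measured 10.2, 1.52 and 4.65 FPKM in the GFP-positive libraries and 0.208, 0.0507 and 0 FPKM in GFP-negative libraries (log2 change 3.05, SE 0.54, adjusted p = 0.0102, limma). It passed the filter only through the GFP-positive libraries, so its place among the 3 genes that rose is no support for a rise of the list.

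**Figure D5:**
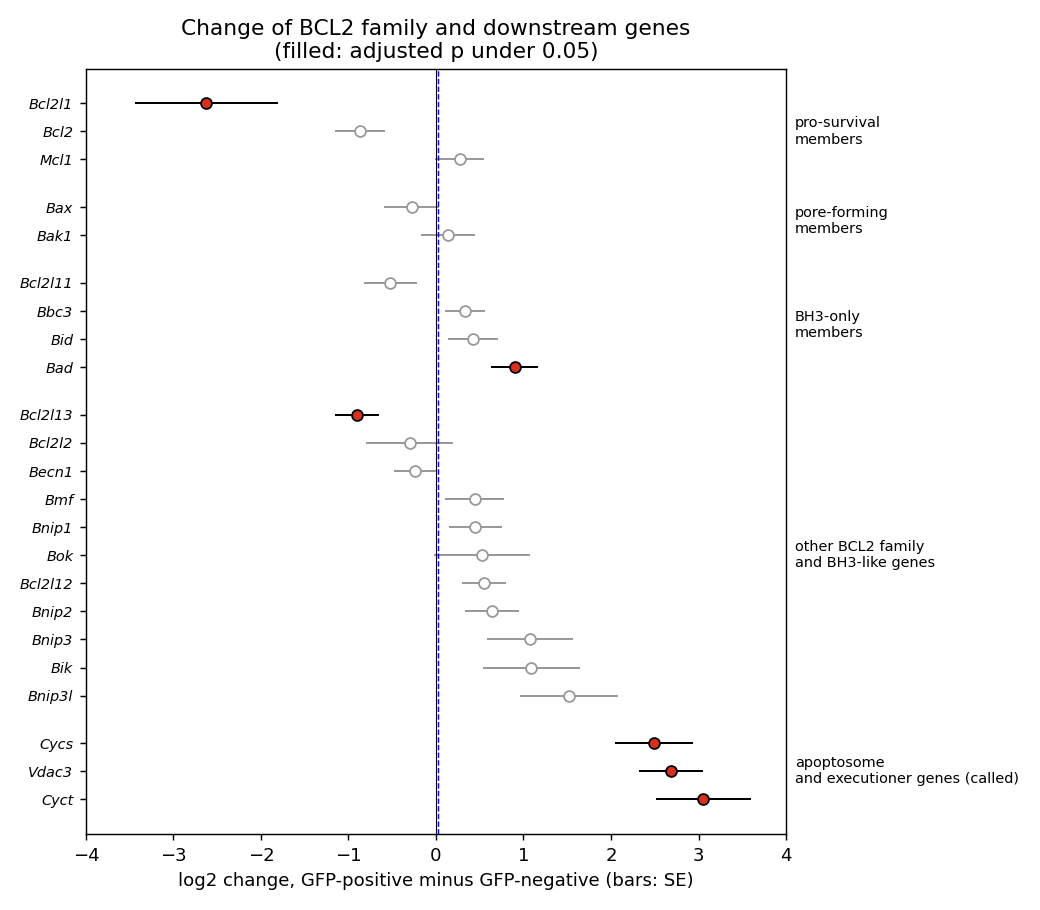
Log2 change (GFP-positive minus GFP-negative, bars are SE) of the tested BCL2 family members, the other tested family genes and the 3 called downstream genes, filled where the adjusted p was under 0.05 and with the median of all genes as a dashed line. Bcl2l1 and Bcl2l13 were the called falls, and Bad, Cycs, Vdac3 and Cyct the called rises.

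The inhibitors of apoptosis and the death receptor genes gave no call in limma (0 of 5 and 0 of 10 tested), where 25.9% of all tested genes were called. At an unadjusted p under 0.05 (limma) there were 1 and 2 genes, and 6391 of all 15095 tested genes. Birc2, a ubiquitin ligase that restrains caspases, had a log2 difference of 0.33 (adjusted p = 0.448) and Birc6 one of -0.74 (adjusted p = 0.104). Tnfrsf1a, the main TNF receptor gene, had -0.83 (adjusted p = 0.0693) and the necroptosis kinase gene Ripk3 0.30 (adjusted p = 0.357). List medians were 0.24 and 0.20.

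Regulators of the family, a list of transcription factors and of genes whose proteins bind or modify its members, were split. The list had 24 tested genes, with 2 higher and 5 lower (list median -0.24), against 14.4% and 11.5% of all tested genes. The dynein light chain genes, whose proteins tether BIM and BMF to the cytoskeleton, went opposite ways. Dynll1 measured 185.1, 256.1 and 263.7 FPKM in GFP-positive 2, 4 and 7, against 111.8, 52.1 and 53.4 FPKM in GFP-negative 9, 11 and M (log2 change 1.77, SE 0.36, adjusted p = 0.0138, limma). Dynll2 fell (log2 change -1.64, adjusted p = 0.0397; chosen after its values were seen, as were Bag6 and Foxo1). The BAG co-chaperone genes, of which Bag1 was named for binding BCL2, were also split. Bag1 rose to 75.8, 80.1 and 77.0 FPKM in GFP-positive libraries, against 32.4, 13.7 and 8.42 FPKM in GFP-negative libraries (log2 change 2.28, SE 0.44, adjusted p = 0.0117, limma). Bag3 fell to 0.685, 0.978 and 0.856 FPKM in GFP-positive libraries, against 3.83, 12.4 and 10.1 FPKM in GFP-negative libraries (log2 change -2.65, SE 0.41, adjusted p = 0.00751, limma), and Bag6 fell as well (-1.66, adjusted p = 0.0222).

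Foxo3, which encodes a transcription factor of Bcl2l11 and Bbc3, fell to 10.2, 9.39 and 6.73 FPKM in GFP-positive libraries, against 23.5, 17.6 and 21.9 FPKM in GFP-negative libraries (log2 change -1.22, SE 0.26, adjusted p = 0.0154, limma). Foxo1 fell too (-0.95, adjusted p = 0.0365). GFP-negative 9 lay with its own group for Foxo3 and Foxo1. Over the 5 lists 5 of 68 tested genes rose and 6 fell, beside 25.9% called among all tested genes.

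The libraries held 11.2, 11.8 and 11.3 Gb of aligned bases in the GFP-positive group and 10.02, 9.67 and 8.25 Gb in the GFP-negative group. Counts of called markers stand beside 14.4% of all tested genes higher and 11.5% lower. Of 20 Sertoli cell markers 18 were tested, 2 rose and 2 fell, and none was at 0 in all libraries. Of 20 germ cell markers 13 were tested and 9 were higher, with Prm1 and Prm2 at 0 in all libraries. Of the 20, 15 averaged at least 0.5 FPKM in the GFP-positive group and only 1, Uchl1, in the GFP-negative group. The other tested markers thus passed the filter through the group where they were high, and their count is no support for a group difference. The summed level of the germ cell markers was 132.5 to 186.6 FPKM in the GFP-positive libraries and 93.4 to 103 FPKM in GFP-negative libraries. Most of the GFP-negative sum came from Uchl1, at 18.5, 97.1 and 71.8 FPKM in GFP-positive 2, 4 and 7, against 91.6, 96.2 and 98.2 FPKM in GFP-negative 9, 11 and M. Without Uchl1, left out after its values were seen, the markers summed to 168.0, 40.1 and 60.7 FPKM in the GFP-positive libraries and 1.89, 2.44 and 4.76 FPKM in GFP-negative libraries. Endothelial markers summed to 3.51 to 6.38 FPKM in the GFP-positive libraries and 7.65 to 12.6 FPKM in GFP-negative libraries, and macrophage and lymphocyte markers to 2.14 to 2.94 and 4.4996 to 8.80 FPKM. Of the other markers tested, 2 of 8 myoid, 1 of 5 Leydig, 1 of 2 macrophage and lymphocyte and 0 of 1 endothelial markers fell, and none rose. Among these falls, Myh11 (myoid) and Insl3 (Leydig) passed the filter through the GFP-negative group. They averaged 0.246 and 0.0316 FPKM in the GFP-positive group. Myoid markers (144.3 to 1937 and 371.5 to 954 FPKM) and Leydig markers (35.8 to 86.1 and 72.4 to 88.6 FPKM) overlapped. The part of these cell types in the member values was not tested.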

How the data were processed

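The authors' strand-specific total RNA libraries were made after removal of ribosomal RNA, per the labels' protocols. Trimmomatic, HISAT2 and StringTie, with build mm39 and no versions, come from the submitters' processing notes. The authors deposited FPKM and per-base coverage for the same 153503 transcripts in each library, per the file headers. Coverage over FPKM gave the aligned bases. Without counts, counting intervals cannot be given.

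FPKM was summed over the transcripts that carry a gene's name. Unnamed loci kept their identifier, and 7902 unnamed isoforms of named loci (5.36% to 8.16% of FPKM) were left out. Scale factors were medians of ratios, taken across 12377 genes averaging at least 1 FPKM. Genes of at least 200 nt with a mean of at least 0.5 FPKM were tested as log2(scaled FPKM + 0.5), which understates changes of low genes, with limma 3.58.1 in R 4.3.3 (mean-variance trend, all 6 libraries) and Benjamini-Hochberg adjustment at 0.05. The fit was tested on simulated data. Isoform classes and sequences came from GENCODE M21 (GRCm38), where all 52 named member transcripts matched by identifier. Coordinates are mm39 unless GRCm38 is named.

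The members and lists were chosen with earlier results of these data known. Each member is named, and from each pathway list up to 4 called genes in order of adjusted p, or the 2 highest in mean where none was called. The 20 alternatives varied the pseudocount, filter, scaling, variance model, weights, gene definition, length trend and libraries. Tables were read with pandas 2.3.3 in Python 3.11.15 and plotted with matplotlib 3.10.9. A few results are not reported here.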

Additional observations from a re-analysis of the deposited data

How the results depend on the processing

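Of 15095 tested genes 3910 were called, against 1082 of 33661 when unfiltered. There were 6983 of 15303 at an equal FPKM sum, 3548 of 15095 after quantile normalization and 2264 of 15095 with the length trend removed. Library weights, whose estimation stopped before convergence, gave 11097 of 15095. Without GFP-negative 11 and M limma called 0 genes, although 3345 were under 0.05 before adjustment (unadjusted p); the lone GFP-negative library is there assumed to vary like the others. Leaving out each library gave 448 (of 15147 tested) to 5628 calls (of 15178). The counts of members and listed genes that follow moved with these counts over all genes, and are not results about the family. Against 2 called members there were 0 when unfiltered, when the length trend was removed and without GFP-negative 11 and M, 1 after quantile normalization, 5 at an equal sum and 6 with weights, and 0 to 1 on leaving out each library. Called genes of the pathway lists were 11, and 4, 29, 47 and 0 with no filter, an equal sum, weights and without GFP-negative 11 and M, and 2 to 23 on leaving out each library. The difference in survival share of -9.99 percentage points was -12.7 without GFP-negative 11 and M, -8.06 with unnamed isoforms added, turned to 2.23 with the length trend removed (Pmaip1, untested, kept its level) and was -11.6 to -8.62 on leaving out each library. Of 180 member values over the 20 alternatives, 141 kept direction and side of the threshold. Direction turned at an equal sum for Mcl1 (-0.76), Bak1 (-0.89), Bid (-0.49), Bad (-0.11) and Bbc3 (-0.67), for Bak1 with the length trend removed (-0.043), and for Mcl1 (-0.27) and Bax (0.23) without GFP-negative 11 and M. Bak1 ran from -0.062 to 0.39 on leaving out each library. The causes were not tested. No paired analysis was possible because the groups share no replicate number. Depth in Gb differs by group, and Pmaip1 could not be judged at its level.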

Other observations

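Some family genes outside the 10 varied more between libraries of a group than between groups, and are given as values (chosen after their values were seen). Bok, which encodes a BAX-like protein, measured 47.7, 234.8 and 103.5 FPKM in GFP-positive 2, 4 and 7, against 84.7, 47.9 and 95.6 FPKM in GFP-negative 9, 11 and M. Its level exceeded that of Bax in 5 of the 6 libraries. Bik, a BH3-only gene, was likewise highest in GFP-positive 4 (5.34, 23.0 and 7.68 FPKM in GFP-positive libraries) and lowest in GFP-negative 11 (6.53, 2.16 and 5.74 FPKM in GFP-negative libraries). Neither passed (log2 differences 0.52 and 1.09, adjusted p = 0.486 and 0.168, limma).

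The mitophagy receptor genes Bnip3 and Bnip3l, which carry BH3-like segments, set GFP-negative 9 apart from GFP-negative 11 and M. Bnip3l measured 29.3, 11.6 and 15.6 FPKM in GFP-positive libraries, against 14.8, 3.05 and 4.01 FPKM in GFP-negative 9, 11 and M (log2 difference 1.52, adjusted p = 0.0725, limma). Bnip3 measured 26.3, 16.1 and 14.0 FPKM in the GFP-positive libraries and 18.5, 4.22 and 7.15 FPKM in GFP-negative libraries (1.08, adjusted p = 0.129). For both genes GFP-negative 9 fell within the GFP-positive range, while GFP-negative 11 and M lay below it.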
